A study of Mus musculus with 3 samples.

Results

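Polycomb complex genes were examined in long-term HSCs (LT-HSCs), the most primitive hematopoietic stem cells, able to rebuild blood over a lifetime. The members were 10 genes chosen by name, of 55413 genes in the annotation and 21938 protein-coding genes. Ezh1, Ezh2, Eed and Suz12 encode Polycomb repressive complex 2 (PRC2), and Bmi1, Cbx2, Cbx7, Cbx8, Ring1 and Rnf2 encode Polycomb repressive complex 1 (PRC1). Marrow was taken from females of the Wild-type genotype, 24 months old, with no treatment named in the labels, and how many animals were pooled is not given there. LT-HSCs were sorted after enrichment for c-Kit, by CD150 with absence of CD48 and CD34 among lineage-negative stem and progenitor cells. DOGMA-seq then measured open chromatin (ATAC) together with transcripts and surface antigens, the last through antibodies carrying DNA tags. A single pool gave 3 libraries, 1 for each assay, so there were no replicates, no test was run, and the exact 95% intervals given here cover counting error only. The ATAC library was described in the 3629 cells that were called by the pipeline and held at least 10 antibody tags, of 4369 called cells. All 3724 barcodes of the antibody library were called cells of the ATAC library.

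The kept cells held 38498362 nuclear fragments, with 3853 to 45069 in a cell and a median of 10287. The HSC markers Mecom, Kit, Hlf, Meis1 and Gata2 lay above the median promoter of all protein-coding genes, and Procr and Slamf1 lay below it. Of the 5 myeloid and 6 macrophage markers 0 lay above that median, against 1 of 5 erythroid, 2 of 5 B cell, 1 of 5 T cell and 4 of 5 megakaryocyte markers. None of these marker promoters was at 0 fragments. Their part in the results below was not tested.

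Polycomb proteins keep genes silent through marks on histones. PRC2 places methyl groups on lysine 27 of histone H3 through its catalytic subunit, which is either Ezh2 or its paralogue Ezh1, held together by the core subunits Eed and Suz12. PRC1 attaches ubiquitin to histone H2A through the RING proteins Ring1 or Rnf2, is built on a PCGF protein such as Bmi1, and in its canonical form reads the PRC2 mark through a chromodomain protein such as Cbx2, Cbx7 or Cbx8. In blood, Bmi1 is known for its part in HSC self-renewal, Cbx7 for favouring self-renewal over differentiation, and Ezh1 for maintaining adult HSCs, whereas Ezh2 is prominent in dividing cells. Accessible chromatin is not expression, and the RNA matrix was not analysed here.

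All 10 members lay above the median promoter, and their levels differed by several fold. The promoter level was the number of fragments overlapping 1000 bp on each side of the most covered transcript start, as counts per 1000000 nuclear fragments (CPM), so that all promoters had the same length. All 10 exceeded the median of protein-coding promoters (11.9 CPM) and 7 exceeded their 75th percentile (31.5). The level of Cbx7, 1 of these 7, rested on the choice among its 7 annotated starts: at the 5′ end of the gene it was 0.468 CPM in place of 36.2, and 9 of 10 members then exceeded the median. The order ran from Cbx8 at 71.3 CPM through Eed, Rnf2, Suz12, Bmi1, Ezh2, Cbx7, Ring1 and Cbx2 to Ezh1 at 19.5. Neighbours in this order had overlapping intervals for Cbx8 and Eed, for Rnf2 and Suz12, for Suz12 and Bmi1, and the other neighbours had intervals that did not overlap.

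**Figure D1:**
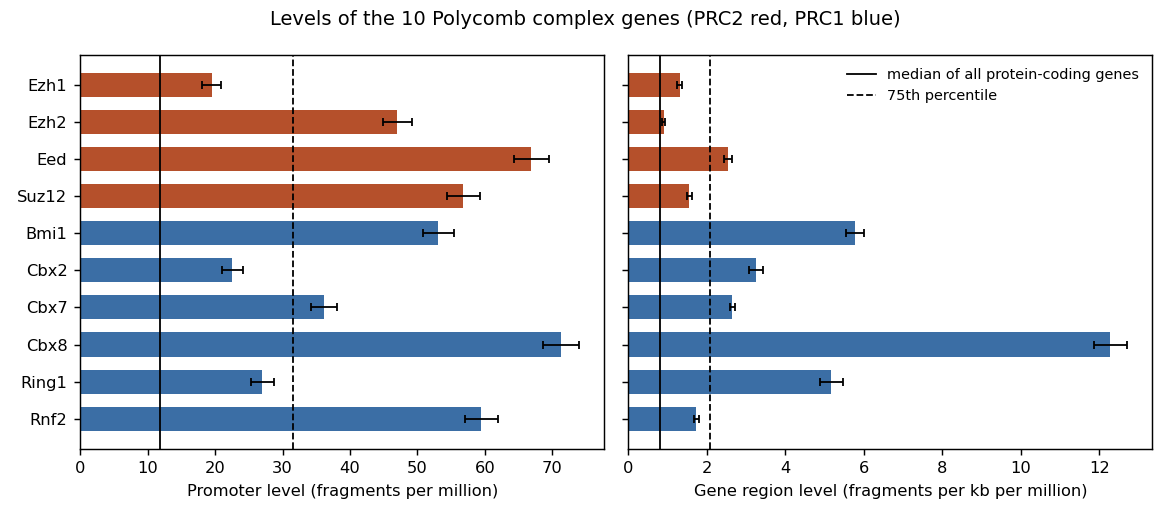
Levels of the 10 members with exact 95% Poisson intervals as error bars; left, promoter CPM; right, CPM per kb over the gene region. Solid and dashed lines mark the median and the 75th percentile of protein-coding genes. Ezh1 has the shortest promoter bar, and Ezh2 has the shortest gene region bar.

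Among the 4 PRC2 members, Ezh1 was the least open at its promoter and Eed the most. Ezh1 (chr11:101191115-101226463, minus strand, mm10) had 750 promoter fragments, or 19.5 CPM (18.1 to 20.9), at percentile 60.5 of protein-coding genes. Ezh2 (chr6:47530139-47595341, minus strand) had 1810, or 47.0 CPM (44.9 to 49.2), at percentile 88.0. Eed (chr7:89954654-89980983, minus strand), whose protein binds the methylated lysine, had 2575, or 66.9 CPM (64.3 to 69.5). Suz12 (chr11:79993106-80034123, plus strand), the scaffold of the complex, had 2186, or 56.8 CPM (54.4 to 59.2). The shared core genes thus lay above both catalytic paralogues. The start of E230029C05Rik, a noncoding transcript on the opposite strand, lay 221 bp from that of Eed, and fragments in that window could not be assigned to either.

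Among the 6 PRC1 members, levels were high for Cbx8, Rnf2 and Bmi1 and low for Cbx2 and Ring1. Bmi1 (chr2:18677018-18686629, plus strand), a PCGF subunit, had 2042 promoter fragments, or 53.0 CPM (50.8 to 55.4). Of the chromodomain genes, Cbx8 (chr11:119036305-119040969, minus strand) had 2744, or 71.3 CPM (68.6 to 74.0), Cbx7 (chr15:79915807-79971119, minus strand) had 1392, or 36.2 CPM (34.3 to 38.1), and Cbx2 (chr11:119022962-119031270, plus strand) had 868, or 22.6 CPM (21.1 to 24.1). Cbx8 and Cbx2 are neighbours on chromosome 11, and the promoter level of Cbx8 was 3.16-fold that of Cbx2. Of the catalytic RING genes, Rnf2 (chr1:151458004-151500955, minus strand) had 2290, or 59.5 CPM (57.1 to 62.0), and Ring1 (chr17:34020792-34024680, minus strand) had 1039, or 26.99 CPM (25.4 to 28.7). The Ring1 window also held starts of Gm26940, Mir219a-1 and Mir219c, the nearest at 332 bp.

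Fragments were sparse in single cells. The share of cells with at least 1 promoter fragment ran from 18.1% (16.9 to 19.4) for Ezh1 to 49.7% (48.1 to 51.4) for Cbx8, with 36.5% (35.0 to 38.1) for Ezh2. For Ezh1, 571 cells held 1 fragment, 80 held 2 and 6 held 3 or more. For Cbx8, 1130 cells held 1, 479 held 2 and 196 held 3 or more. Fragments over the promoters of both Ezh1 and Ezh2 were seen in 275 cells, over Ezh1 alone in 382, over Ezh2 alone in 1051 and over neither in 1921. A cell without a fragment was not shown to have a closed promoter, since the share followed depth: for Ezh1 it was 13.9% in the 1210 shallowest cells and 23.3% in the 1209 deepest, whereas the level was 20.5 CPM (17.6 to 23.7) and 19.1 CPM (17.1 to 21.2). For Ezh2 the corresponding levels were 51.5 (46.8 to 56.4) and 44.8 (41.7 to 48.1) CPM.

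The sequences below are shown because the promoters of the catalytic paralogues and of Cbx8, the most open member, differed in letters that can be matched to known motifs. They are RefSeq promoters on GRCm38.p6, which has the coordinates of mm10, from 250 bases before to 50 after the RefSeq start, 5′ to 3′ on the gene's own strand. Capitals mark exact matches on either strand to the motifs searched. The GC box was searched as GGGCGG and the CCAAT box by the letters of its name. The ETS motif was CCGGAAG and the NRF1 motif was GCATGCGC. The E2F motifs were TTTCCCGC and, in a second form, TTTGGCGC. The YY1 motif was AAGATGGCG, the E box was CACGTG, the motif of GATA factors was AGATAA and that of RUNX factors was TGTGGT. Neighbouring GC boxes can overlap each other, as they do in Bmi1, and the other motifs did not share letters in the sequences shown. The 3 windows are chr11:101226414-101226713 for Ezh1, chr6:47594981-47595280 for Ezh2 and chr11:119040864-119041163 for Cbx8.
Ezh1 promoter: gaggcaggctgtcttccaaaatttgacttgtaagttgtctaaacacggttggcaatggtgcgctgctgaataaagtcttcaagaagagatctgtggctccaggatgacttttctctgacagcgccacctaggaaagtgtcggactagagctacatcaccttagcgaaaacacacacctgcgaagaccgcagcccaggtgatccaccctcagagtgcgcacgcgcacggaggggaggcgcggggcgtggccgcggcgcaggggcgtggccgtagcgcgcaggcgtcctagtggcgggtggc
Ezh2 promoter: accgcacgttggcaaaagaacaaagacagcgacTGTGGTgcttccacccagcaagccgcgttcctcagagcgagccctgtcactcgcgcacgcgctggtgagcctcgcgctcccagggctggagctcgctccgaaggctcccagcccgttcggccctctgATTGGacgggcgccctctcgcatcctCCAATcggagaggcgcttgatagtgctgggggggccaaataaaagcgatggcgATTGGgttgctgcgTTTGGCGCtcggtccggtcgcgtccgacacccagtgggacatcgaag
Cbx8 promoter: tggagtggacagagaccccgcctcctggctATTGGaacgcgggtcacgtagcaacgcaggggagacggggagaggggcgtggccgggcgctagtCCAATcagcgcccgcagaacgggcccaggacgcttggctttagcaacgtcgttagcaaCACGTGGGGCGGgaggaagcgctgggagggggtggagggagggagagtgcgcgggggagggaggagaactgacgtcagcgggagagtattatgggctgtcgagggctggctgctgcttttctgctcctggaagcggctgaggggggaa

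The Ezh1 window held none of these motifs, the Ezh2 window held 3 CCAAT boxes, 1 E2F motif and 1 RUNX motif, and the Cbx8 window held 2 CCAAT boxes, 1 GC box and 1 E box. The table of promoters held 9 of the 10 members, without Cbx2. GC boxes were found in 6 of the 9 (Suz12, Bmi1, Cbx7, Cbx8, Ring1 and Rnf2), against 35.9% of 27025 promoters of the same length, and CCAAT boxes in 5 (Ezh2, Eed, Suz12, Cbx7 and Cbx8), against 37.9%. The E2F motif TTTGGCGC was in Ezh2 alone (0.537% of all promoters), TTTCCCGC in Suz12 alone (1.11%), the RUNX motif in Ezh2 alone (16.9%), and the E box in Bmi1 and Cbx8 (7.24%). The ETS (9.12%), NRF1 (2.8%), YY1 (1.49%) and GATA (11.4%) motifs were in none of the 9. All 9 were rich in CpG: they held 17 (Eed) to 41 (Suz12) CpG in 300 bases, against a median of 7 over all promoters, with 23 in Ezh1, 31 in Ezh2 and 24 in Cbx8. A match describes letters only, and a window without a match says nothing about binding of the factor.

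The shape of the open stretch also varied. Insertions at Ezh1 were highest in the 50 bp bin centred 25 bp upstream of the start, and the unbroken run of bins around it above 50% of that height spanned 100 bp. The corresponding widths were 200 bp for Ezh2, Suz12 and Bmi1, 250 bp for Cbx7 and Rnf2 and 300 bp for Cbx8, each lying wholly or mostly upstream of the start. Separate bins above 50% of the top bin lay outside that run at Bmi1 (475 and 425 bp upstream), at Cbx7 and Ring1 (225 bp downstream of each start), at Cbx2 (1525 bp downstream) and on both sides at Eed. Of the insertions within 1000 bp of the start, 65.8% lay upstream at Cbx8, 65.2% at Rnf2 and 65.02% at Bmi1, against 28.4% at Cbx2 and 36.9% at Eed. The Cbx2 bin centred 1525 bp downstream was at 3.59 CPM. Fragments too short to span a nucleosome core made up 53.0% of promoter fragments at Cbx8 and 51.3% at Suz12, and 33.8% at Ring1 and 34.6% at Cbx2. The median was 38.0% over 13677 promoters with at least 200 fragments, and Ezh1 (41.6%) and Ezh2 (37.5%) lay near it.

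**Figure D2:**
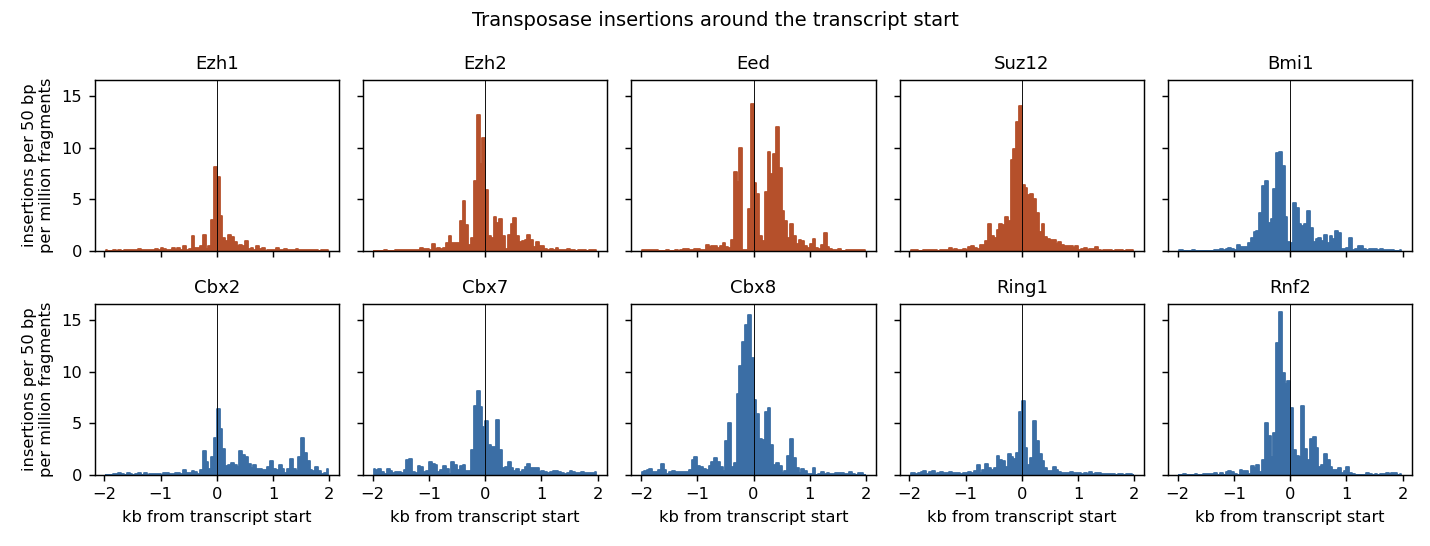
Transposase insertions per 50 bp in CPM against distance in kb from the transcript start, in the direction of transcription, for the 10 members (PRC2 red, PRC1 blue). Ezh1, Cbx2 and Ring1 have low, narrow peaks, Cbx8 and Rnf2 tall peaks upstream of the start, and Eed separate peaks on both sides.

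The comparison of Ezh1 with Ezh2 depended on what was counted. At the promoter, Ezh1 lay below Ezh2 with a log2 ratio of −1.27 (−1.40 to −1.15). Over the gene body and 2 kb upstream, counted per kb because the regions were 37.4 kb and 67.2 kb long, Ezh1 had 1889 fragments and a level of 1.31 CPM per kb (1.26 to 1.37), and Ezh2 had 2339 and a level of 0.904 (0.868 to 0.942). The log2 ratio of these levels was 0.54 (0.45 to 0.63), in the opposite direction. Outside the promoter window, Ezh1 had 1139 fragments (0.837 CPM per kb) and Ezh2 had 529 (0.211), with a log2 ratio of 1.99 (1.84 to 2.14). The promoter window held 39.7% of the region's fragments for Ezh1 and 77.4% for Ezh2.

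A second gene pair, the catalytic RING genes, also turned with the measure. The promoter log2 ratio of Ring1 over Rnf2 was −1.14 (−1.25 to −1.03) and the ratio of the gene region levels per kb was 1.57 (1.47 to 1.67), but here the promoter held most fragments of both (88.6% and 76.1%) and the regions were 5.89 kb and 44.95 kb long. Cbx7 over Cbx2 turned too, from 0.68 (0.56 to 0.81) at the promoter to −0.29 (−0.38 to −0.20) per kb. Cbx8 over Cbx2 had the same direction by both measures, 1.66 (1.55 to 1.77) at the promoter and 1.92 (1.83 to 2.02) per kb. Over the gene body alone, without the 2 kb upstream, Cbx8 was at 7.76 CPM per kb in place of 12.3, Cbx2 at 3.53 in place of 3.25 and Suz12 at 0.929 in place of 1.55. Only Cbx7 and Ezh1 had less than 50% of their region's fragments at the promoter. Gene regions of Bmi1, Cbx7, Ring1 and Rnf2 overlapped another protein-coding gene (Commd3, Apobec3, H2-Ke6 and Trmt1l), and those of Ezh1, Cbx2 and Cbx8 overlapped no other annotated gene.

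The most open stretch of Ezh1 outside the promoter was an intronic site. In each member the distal site was the 500 bp window with most fragments that lay more than 2 kb from every annotated transcript start. For Ezh1 it was chr11:101221315-101221814, centred 4.86 kb into the gene, with 467 fragments or 12.1 CPM (11.1 to 13.3), which was 24.7% of the region's fragments, and 11.02% of cells had a fragment there. For Ezh2 it was chr6:47561239-47561738, over an exon 33.5 kb into the gene, with 59 fragments or 1.53 CPM (1.17 to 1.98). Cbx7 had the most open distal site of the members, chr15:79927607-79928106 in an intron 4.78 kb downstream of its start, with 903 fragments or 23.5 CPM (21.95 to 25.04). It had further sites at −17.92 kb and −13.62 kb from that start, with 587 and 353 fragments, inside the gene as annotated from its farther starts. The distal sites of the other 7 members held 8 (Bmi1) to 100 (Cbx8) fragments. Stretches within 2 kb of an annotated start were left out by this rule, among them an open stretch inside Bmi1. Its 500 bp bin centred 4250 bp downstream of the Bmi1 start held 679 insertions, or 17.64 CPM. The Ezh1 bin centred 4750 bp downstream of the Ezh1 start held 675, or 17.53 CPM.

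**Figure D3:**
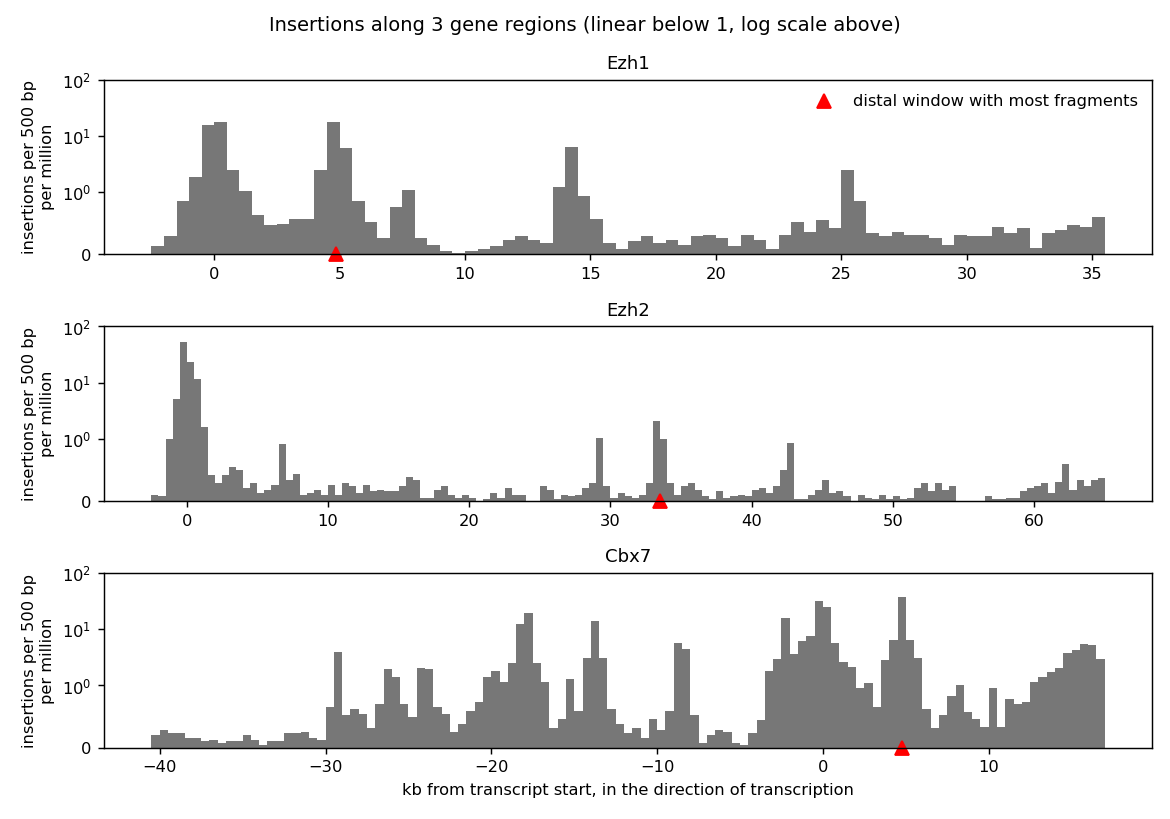
Insertions per 500 bp in CPM along the regions of Ezh1, Ezh2 and Cbx7, against kb from the transcript start; the vertical axis is linear below 1 and logarithmic above. The triangle marks the distal window with most fragments, which in Ezh1 and Cbx7 reaches the height of the promoter and in Ezh2 does not.

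The central 300 bases of the Ezh1 and Cbx7 sites are shown because Ezh1 and Cbx7 had the most open leading distal sites of the 10 members, and the results by CD357 return to the first. They were read from GRCm38.p6 at chr11:101221415-101221714 and chr15:79927707-79928006, minus strand in both, and the capitals mark the same motifs.
Ezh1 intron site: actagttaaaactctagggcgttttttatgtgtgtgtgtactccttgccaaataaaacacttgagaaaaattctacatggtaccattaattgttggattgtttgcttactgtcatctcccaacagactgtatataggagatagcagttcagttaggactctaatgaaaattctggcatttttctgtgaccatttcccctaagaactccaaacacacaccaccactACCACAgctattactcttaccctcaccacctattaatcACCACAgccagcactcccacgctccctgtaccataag
Cbx7 intron site: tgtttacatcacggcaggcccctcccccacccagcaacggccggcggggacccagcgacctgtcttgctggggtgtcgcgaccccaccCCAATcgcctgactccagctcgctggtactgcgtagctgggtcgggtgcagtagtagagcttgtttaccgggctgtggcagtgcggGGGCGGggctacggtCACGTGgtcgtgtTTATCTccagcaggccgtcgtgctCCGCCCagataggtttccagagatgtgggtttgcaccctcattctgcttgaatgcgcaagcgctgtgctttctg

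The sites differed in composition. The Ezh1 site had a GC share of 41.0% and 2 CpG, unlike its own promoter (59.3% and 23), and held 2 RUNX motifs, both on the opposite strand, and no other motif searched. The Cbx7 site had a GC share of 63.0% and 22 CpG and held 2 GC boxes, 1 CCAAT box, 1 E box and 1 GATA motif. RUNX motifs were in 16.9% and GATA motifs in 11.4% of promoters of the same length, and no share was computed for distal sites. Less open distal windows held RUNX motifs at Ezh1, Ezh2, Eed, Suz12, Cbx2, Cbx7 and Ring1, and none at Bmi1, Cbx8 and Rnf2. Such windows held GATA motifs at Ezh2, Eed, Suz12 and Cbx8.

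The other genes of the pathway were read at their promoters. The 8 other PRC2 genes had a median of 41.6 CPM and all 8 exceeded the median of protein-coding genes. Highest were Rbbp4, a histone-binding subunit, at 80.6 CPM and Jarid2, an accessory subunit that helps recruit PRC2, at 79.8, and lowest were Phf19 at 21.6 and Epop at 26.5. The 23 other PRC1 genes had a median of 34.5 and 21 exceeded that of protein-coding genes, with Rybp, a subunit of noncanonical PRC1, at 60.1, and Sfmbt2 at 9.95 and Auts2 at 10.9. Of 6 genes for enzymes that remove the marks or their partners, 5 exceeded it, with Kdm6a, a demethylase of lysine 27, at 60.4, Asxl2 at 60.3, Asxl3 at 13.0 and Kdm6b, another demethylase, at 3.95. Over its gene region, however, Kdm6b was at 6.34 CPM per kb, above the 90th percentile of protein-coding genes (4.27). The 10 members had a median of 50.03 CPM.

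Known targets of Polycomb had a lower median promoter level than the 10 members, but the ranges met at Ezh1 (19.5 CPM). The 25 targets, developmental regulators and Cdkn2a, had a median of 10.5 CPM, near the 11.9 CPM of all protein-coding promoters. Of these, 12 exceeded the median of protein-coding genes and 0 exceeded the 75th percentile, against 7 of the 10 members. Gata6 (19.9) and Sim1 (19.5) were highest, Neurod1 (4.03) and Hand1 (4.42) lowest, and Cdkn2a, which encodes cell cycle inhibitors and is a classical target of Bmi1, was at 10.5.

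The study asked whether surface antigens separate platelet-biased (PLT) from multi-lineage (MUL) HSCs. Its PLT gate takes cells high for CD61 and CD274 and low for CD357 and CD27, and its MUL gate the opposite. The members were compared between cells with many and few tags of each of these antibodies, over the gene region and scaled by nuclear fragments. A gene was taken as past the fold if its log2 ratio was at least 0.32 in either direction and it had at least 200 fragments over both groups. Most members differed little: of 10 members, 1 was past the fold for CD61 (3.7% of all genes tested were), 1 for CD274 (5.05%), 1 for CD357 (2.67%) and 0 for CD27 (2.21%). Over the promoters alone, 0 of 10 were past the fold for CD61, CD274, CD357 and CD27, against 4.61%, 5.96%, 3.23% and 3.19% of all promoters tested. The median log2 ratio of the members over gene regions was 0.03, 0.01, 0.02 and 0.02, and that of all genes tested was within 0.01 of 0.

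**Figure D4:**
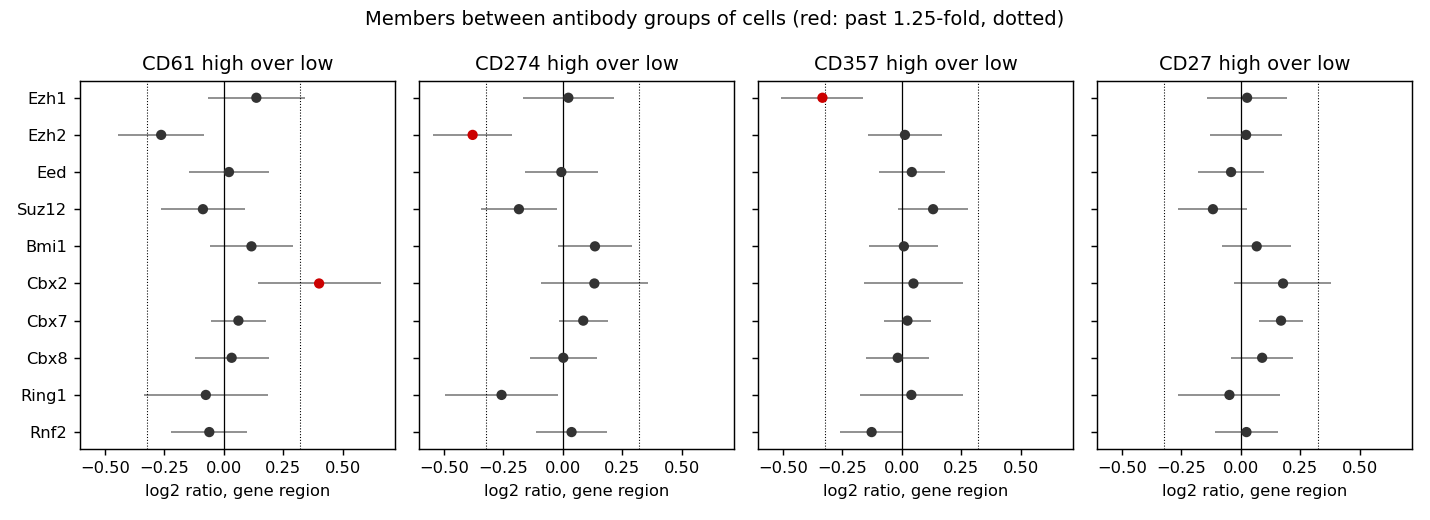
Log2 ratio of gene region fragments between cells high and low for each of 4 antibodies, with exact conditional binomial 95% intervals, for the 10 members. Dotted lines mark log2 ratios of 0.32 in either direction, and the red points past them are Cbx2 for CD61, Ezh2 for CD274 and Ezh1 for CD357.

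Ezh2 was lower in the 937 CD274-high cells (27 or more tags) than in the 877 CD274-low cells (12 or fewer). The level over its region was 54.8 against 71.2 CPM, a log2 ratio of −0.38 (−0.54 to −0.22). In cells with at least 50 tags the sign turned, to 0.065 (−0.47 to 0.60), and without the deepest 5% of cells the ratio was −0.29 (−0.47 to −0.12), short of the fold. The log2 ratio was nearer 0 at the promoter than outside it: 45.2 against 52.1 CPM at the promoter, −0.20 (−0.39 to −0.02), and 9.58 against 19.1 outside it, −0.996 (−1.37 to −0.64), from 99 and 179 fragments. Along the gene the ratio was −1.40 (−2.17 to −0.71) from 2 to 20 kb, −0.88 (−1.58 to −0.22) from 20 to 40 kb and −0.74 (−1.38 to −0.12) beyond. The exonic distal site 33.5 kb into the gene had the opposite sign, with 14 against 8 fragments and 0.63 (−0.69 to 2.12). Between CD61-high (6 or more tags, 779 cells) and CD61-low cells (1 or 0, 727 cells) the region of Ezh2 had a log2 ratio of −0.26 (−0.44 to −0.08), short of the fold, and −0.67 (−1.06 to −0.29) outside the promoter. That region ratio was −0.16 (−0.33 to 0.01) on the centred log ratio scale and 0.23 (−0.29 to 0.77) in cells with at least 50 tags. The centred log ratio scale sets the log of each antibody's count, with 1 added, against the mean of these logs in the cell. For CD357 and CD27 its region had ratios of 0.01 (−0.14 to 0.17) and 0.02 (−0.13 to 0.17).

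Ezh1 was lower in the 968 CD357-high cells (5 or more tags) than in the 1200 CD357-low cells (1 or 0) over its region, and the ratio at its intronic site lay farther from 0 than that at the promoter. The region level was 43.9 against 55.3 CPM, −0.33 (−0.51 to −0.16). The site shown above had 100 fragments in high and 198 in low cells, −0.75 (−1.12 to −0.40), whereas the promoter had 17.4 against 20.9 CPM, −0.26 (−0.54 to 0.01). From 6 to 20 kb and from 20 to 40 kb the ratios were −0.05 (−0.50 to 0.39) and −0.19 (−0.68 to 0.28). At the same site the ratio was 0.15 (−0.27 to 0.57) for CD61, 0.35 (−0.05 to 0.77) for CD274 and −0.12 (−0.48 to 0.22) for CD27. The site and the parts of Ezh2 and Cbx2 outside the promoter were singled out after their values had been seen.

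Cbx2 was higher in CD61-high cells, with 36.6 against 27.7 CPM over its region, 0.40 (0.15 to 0.66). Outside the promoter it had 118 against 59 fragments, 0.79 (0.33 to 1.27), most of them within 2 kb downstream of the start (84 and 42), and at the promoter 201 against 150, 0.21 (−0.10 to 0.53). The region ratio fell to 0.17 with tertiles, short of the fold, and that outside the promoter to 0.04 in cells with at least 50 tags. Short of the fold were also Suz12 at −0.18 (−0.34 to −0.03) and Ring1 at −0.26 (−0.50 to −0.02) for CD274, and Cbx7 at 0.17 (0.07 to 0.26) for CD27. Eed, Bmi1, Cbx8 and Rnf2 stayed between −0.13 and 0.14 over their regions for all 4 antibodies. Outside the promoter, where it had few fragments, Eed was at −0.80 (−1.51 to −0.12) for CD61 and −0.57 (−1.16 to −0.03) for CD27. For CD274 and CD357 that part of Eed was at −0.26 (−0.87 to 0.34) and 0.30 (−0.23 to 0.82). No share of all genes was computed for the parts outside the promoter.

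**Figure D5:**
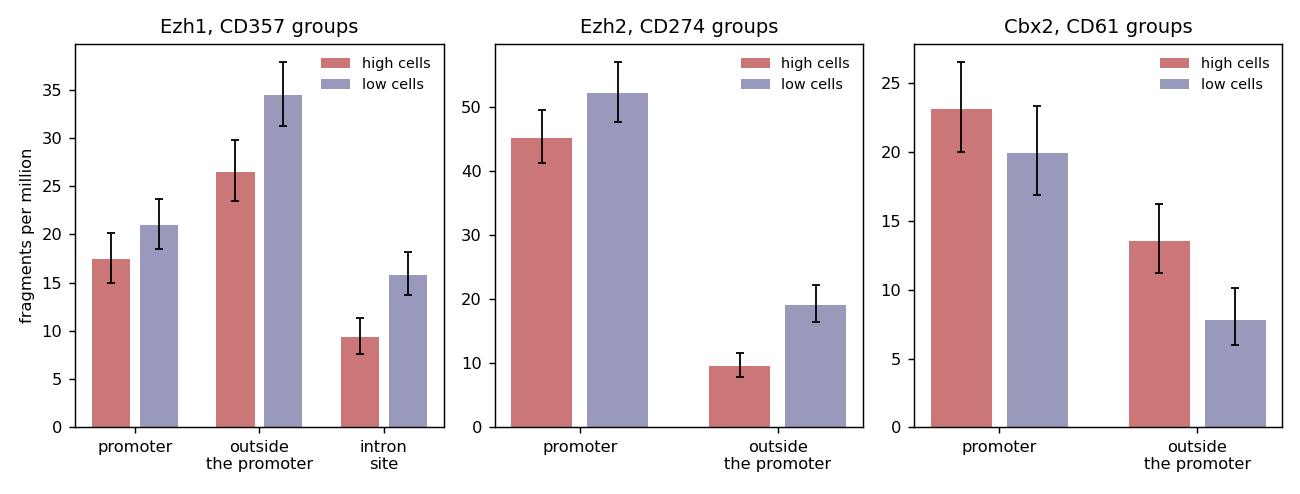
Levels (CPM) in high and low cells at the promoter and in the rest of the gene region, with exact 95% Poisson intervals, for Ezh1 by CD357, Ezh2 by CD274 and Cbx2 by CD61. Bars for the Ezh1 intron site, part of the rest of the region, are also shown; the larger gaps between high and low cells lie outside the promoters.

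The ratio of Ezh1 to Ezh2 was also read within each antibody group. As a log2 ratio of region levels per kb it was 0.71 (0.52 to 0.90) in CD61-high and 0.31 (0.11 to 0.51) in CD61-low cells, 0.62 (0.44 to 0.79) and 0.21 (0.03 to 0.39) for CD274, 0.39 (0.22 to 0.57) and 0.74 (0.59 to 0.89) for CD357, and 0.53 (0.34 to 0.71) and 0.52 (0.39 to 0.66) for CD27. At the promoters it was negative in all 8 of these groups, from −1.53 in CD61-low to −1.11 in CD61-high cells. The groups of the 4 antibodies share cells, so these are not independent.

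The gates held few cells, 342 for PLT and 61 for MUL, and intervals were wide. On the centred log ratio scale the same rule gave 251 PLT and 252 MUL cells, so the sizes depended on the scale. Of the 8 members with at least 200 fragments, 3 were past the fold, against 20.2% of all genes tested: Bmi1 at 0.57 (0.01 to 1.22), Ezh1 at 0.37 (−0.21 to 1.06) and Ezh2 at −0.48 (−0.98 to 0.07). With at least 50 tags per cell the gates held 22 and 25 cells, and the sign turned for Bmi1 (−0.15) and Ezh2 (0.17). Over the promoters it was 1 of 4, Bmi1, against 21.9%. The log2 ratio of Ezh1 to Ezh2 per kb was 1.07 (0.77 to 1.38) in the PLT gate and 0.22 (−0.58 to 0.97) in the MUL gate.

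Groups differed in more than the antigen. Some cells had an excess of windows covered by 3 or more overlapping fragments, which can come from more than 1 nucleus. The excess was not adjusted for depth, and such cells were not told apart from cycling cells. They made up 13.6% of CD61-high and 5.23% of CD61-low cells, 13.0% and 6.39% for CD274, and 12.1% and 4.83% for CD357. For CD27 they made up 11.4% and 5.96%, and for the gates 7.02% (PLT) and 1.64% (MUL). The ratios were also computed without them. Without these cells the ratio was −0.28 (−0.46 to −0.10) for Ezh2 by CD274, short of the fold, −0.39 (−0.58 to −0.20) for Ezh1 by CD357 and 0.30 (0.01 to 0.58) for Cbx2 by CD61, short of the fold, and Ring1 by CD274 was then past it at −0.34 (−0.61 to −0.08). Outside the promoter it was −0.79 (−1.22 to −0.38) for Ezh2 and 0.70 (0.19 to 1.24) for Cbx2, and at the Ezh1 site −0.81 (−1.22 to −0.42). Median tags per cell were 46 against 17 for CD274, and on the centred log ratio scale the ratios were −0.39 for Ezh2, −0.31 for Ezh1 and 0.29 for Cbx2, of which the Ezh1 and Cbx2 ratios were short of the fold. That scale need not take out all of the difference in tags. With cells grouped by tertiles, Ezh1 (−0.31) and Cbx2 (0.17) also fell short. The share of fragments in peaks was 67.8% in CD274-high and 65.3% in CD274-low cells, and its part in the Ezh2 ratio was not tested.

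Markers of blood lineages were also compared over their gene regions. No minimum of fragments was set for them and no intervals are given, so ratios of markers with few fragments are uncertain. For CD274, the 5 erythroid markers had a median log2 ratio of −0.13, from −0.69 (Epor) to 0.07 (Klf1), and the 8 HSC markers one of −0.01, from −0.22 (Kit) to 0.21 (Procr). For CD61, the HSC markers had a median of 0.04, from −0.10 (Meis1) to 0.51 (Procr), the 5 megakaryocyte markers 0.08, from −0.35 (Pf4) to 0.23 (Gp1ba), the erythroid markers −0.06, from −0.34 (Epor) to 0.15 (Hba-a1), and the 5 myeloid markers −0.21, from −0.35 (Csf3r) to 0.06 (Lyz2). That myeloid median was the value of S100a8, which had 11 promoter fragments in all kept cells. It is the value that equal counts in CD61-high and CD61-low cells give. For CD357, the HSC markers had a median of −0.02, from −0.21 (Slamf1) to 0.18 (Kit), and the erythroid markers −0.06. Between the gates the megakaryocyte markers had a median of 0.58, from 0.04 (Pf4) to 0.90 (Ppbp), the erythroid markers −0.32 and the HSC markers 0.11. Ppbp and Hba-a1 had few fragments, 32 and 13 over their promoters in all kept cells. Hba-a1 was at −2.56 between the gates, the value that equal counts in both gates give, because the gates differ in size. The part of these lineages in the ratios of Ezh1, Ezh2, Bmi1 and Cbx2 was not tested.

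For the other 8 antibodies, which had few tags and unequal groups, the members lay between −0.48 (Ring1 for CD183, 225 cells with a tag) and 0.30 (Eed for CD163, 71 cells with a tag). The interval was −0.91 to −0.10 for that Ring1 ratio, from 54 fragments in cells with a tag, and −0.09 to 0.64 for that Eed ratio. Cbx8 was at −0.29 (−0.51 to −0.09) for CD68 and Ezh1 at −0.19 (−0.33 to −0.06) for P2X7R.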

How the data were processed

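The authors processed ATAC and RNA with Cell Ranger ARC 2.0.2 on mm10, which called cells, collapsed duplicates and shifted fragment ends for the transposase; they counted antibody tags with CITE-seq-Count (version: not given in the sources used here). All deposited files hold raw counts: 43705382 fragments, per-barcode totals and antibody tags of 3724 cells. In the deposited antibody list the entry for CD106 carries another antibody's name.

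Fragments were counted over GENCODE M21 genes plus 2 kb upstream and within 1000 bp of the annotated start with most fragments within 250 bp. A pseudocount of 0.5 entered ratios, with exact conditional binomial intervals at 95%; levels have Poisson and shares Clopper-Pearson intervals. High and low cells were those nearest to the top and bottom quartile that ties allowed. The PLT gate took cells over the median of CD61 and of CD274 but not over that of CD357 or CD27, and the MUL gate the reverse. All 10 members were named and, of each other list, the 2 highest and 2 lowest promoters, except where a gene is not reported here. The members and lists were chosen with earlier results of these data known. Doublets were not removed. Read pairs carry no molecular identifiers. With 1 pool of cells and no replicates, intervals cover counting error only. The code for the contrasts was checked on simulated counts, which is no test of these data. Alternatives are given in the closing section. Computations used scipy 1.17.1, pandas 2.3.3 and numpy 2.4.6 under Python 3.11.15.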

Additional observations from a re-analysis of the deposited data

Results flagged for a closer look

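Barcodes not called as cells, which enter no comparison above, held 1037 fragments over the promoters of the 10 members, or 371 CPM of their nuclear fragments. They are given because they are signal in barcodes that no comparison used. Kept cells had 459.7 CPM, a log2 ratio of 0.31 (0.22 to 0.40). For Ezh1 the not-called barcodes held 29 fragments, or 10.4 CPM, and kept cells 19.5, a log2 ratio of 0.88 (0.37 to 1.497), the highest of the 10 members, and for Eed, the lowest, it was 0.11 (−0.11 to 0.34).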

How the results depend on the processing

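The log2 ratio of Ezh1 over Ezh2 stayed within its interval at the promoter under 8 alternatives and over the gene region under all alternatives but 1: outside the promoter it was 1.99. Members past the fold over the 4 antibodies, 3 of 40, were 1 with the centred log ratio, 1 with tertiles, 2 without the deepest 5% of cells, 0 over promoters and 0 with at least 50 tags, where 4 of 40 could be tested in 363 cells. For the gates, 3 became 1 over promoters and 5 with all called cells that had antibody counts, which adds those with fewer than 10 tags. The count was 0 with tertiles and 0 with at least 50 tags, but in both settings 0 members had enough fragments to be tested. These counts of 0 therefore say nothing about the size of the ratios. Apart from promoters, no share of all genes past the fold was computed under the alternatives, so their counts of members have no background. With tertiles the gates held 45 and 27 cells, and the log2 ratio of Ezh1 was 1.146, its highest among the alternatives. With at least 50 tags, Ezh2 turned to 0.065 for CD274 and to 0.17 for the gates, and Bmi1 to −0.15 for the gates; Ezh2 by CD61, not past the fold, became 0.23. The cause was not tested, and few fragments lay behind these values. The Ezh1 site, and Ezh2 and Cbx2 outside the promoter, alternatives added after the data were seen, kept their direction in 7 of 7, with −0.81 to −0.30, −1.02 to −0.45 and 0.04 to 0.81. The promoter level of 9 of 10 members left its interval with 500 bp on each side. That window lies inside the main one and was not scaled by length, so the level could not rise. With the start at the gene's 5′ end the promoter level of Cbx7 became 0.468 CPM. With at least 50 tags, 14 of the promoter and gene region levels left the intervals of all kept cells and 6 did not. Those intervals do not cover the larger counting error of the 363 cells in this setting. With 1 pool of cells no replicate could be left out. No paired analysis was possible because each assay had 1 sample.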
